A study of Homo sapiens with 12 samples.

Results

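Transcript levels of 8 epidermal transcription factors, TP63, KLF5, KLF4, OVOL1, GRHL3, GRHL1, PRDM1 and ZNF750, were compared in HaCaT, an immortalised keratinocyte line of human origin. They are 8 of the 58735 genes in the deposited table. Each was taken by its symbol, which belonged to 1 identifier in every case, without regard to its values. RNA of 12 libraries was sequenced, 3 in each of 4 groups. PHGDH-siRNA+Mix cells had received siRNA against PHGDH, which encodes the enzyme that opens serine synthesis, and were then treated for 24 h with what the labels call Mix. PHGDH-siRNA cells had received that siRNA without Mix. Control-siRNA+Mix and Control-siRNA cells had received a control siRNA, with and without Mix. No source used here gives the contents of Mix or the siRNA sequences. HaCaT is a single line, so the libraries of a group share their genetic origin, and whether each had a culture of its own is unstated. The p-values therefore reflect no more than the spread among these libraries, which may be technical.

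The epidermis is renewed by basal keratinocytes that stop dividing, move outward and build the cornified barrier. p63, the product of TP63, is the p53-family factor that sets and keeps the identity of basal cells of stratified epithelia. The other factors act with it or downstream of it as keratinocytes divide, commit and differentiate, some as activators of barrier genes and some as repressors of the genes of the dividing state.

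The start regions of 3 of the genes are printed because PRDM1 was the only one of the 8 whose change passed the test with the libraries taken as independent, and because KLF5 and KLF4, close relatives, differed in opposite directions in the same libraries. RefSeq (GRCh38.p14) gave a start region, 250 bases before to 50 after the start, for 6 of the 8 genes, OVOL1 and ZNF750 being the exceptions. Capitals mark matches to the motifs searched.
PRDM1 (chr6:106098691-106098990, plus strand): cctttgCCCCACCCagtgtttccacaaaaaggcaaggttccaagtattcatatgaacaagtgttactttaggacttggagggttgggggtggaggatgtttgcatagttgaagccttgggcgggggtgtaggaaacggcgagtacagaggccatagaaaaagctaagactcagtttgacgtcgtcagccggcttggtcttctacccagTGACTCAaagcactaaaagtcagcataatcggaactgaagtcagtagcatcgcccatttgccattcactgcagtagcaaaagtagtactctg
KLF5 (chr13:73058755-73059054, plus strand): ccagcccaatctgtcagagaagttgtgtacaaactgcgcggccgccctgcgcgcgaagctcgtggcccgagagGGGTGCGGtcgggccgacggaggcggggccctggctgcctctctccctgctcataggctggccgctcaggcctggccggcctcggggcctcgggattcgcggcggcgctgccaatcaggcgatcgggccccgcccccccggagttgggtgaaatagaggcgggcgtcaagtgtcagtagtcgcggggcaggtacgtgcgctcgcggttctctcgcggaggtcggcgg
KLF4 (chr9:107489720-107490019, minus strand): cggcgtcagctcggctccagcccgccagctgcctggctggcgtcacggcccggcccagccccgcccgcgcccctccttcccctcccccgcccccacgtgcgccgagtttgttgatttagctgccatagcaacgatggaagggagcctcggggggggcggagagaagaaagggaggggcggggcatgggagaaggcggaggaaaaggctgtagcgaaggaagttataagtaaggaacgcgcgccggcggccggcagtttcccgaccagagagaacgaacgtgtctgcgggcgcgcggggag
The motifs were searched on both strands. They were AP-1 TGANTCA, CRE TGACGTCA, NF-kappaB (GGGA and CC with 4 bases between), STAT TTCNNNGAA, grainyhead AACCGGTT, KLF CCNCACCC, OVOL CCGTTA, PRDM1 (AAAG and GAAAG with 1 base between) and p53 family (CATG and CATG with 6 bases between). The PRDM1 region held an AP-1 match that began 42 bases before the start and a KLF match that began 244 bases before it, and these did not overlap. AP-1 matches were in 7.71% and KLF matches in 18.3% of the 35116 RefSeq start regions of the same length. The KLF5 region held a KLF match that began 177 bases before the start, on the reverse strand, and the KLF4, TP63, GRHL1 and GRHL3 regions held no match to any of the motifs. These windows belong to the RefSeq start: the PRDM1 start there lay 12621 bases and the KLF5 start 4029 bases downstream of the gene start in the deposited table. A match of letters is a description of the window and no evidence of binding.

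In PHGDH-siRNA+Mix and PHGDH-siRNA, the replicate 2 libraries stood apart from the other libraries of their groups. They lay at 46.3 and 50.02 on the second principal component of log2(FPKM + 1), and the other 10 libraries between -29.6 and 14.4. Results are therefore given with all 12 libraries, and also without this pair where a call changes. In addition, same-numbered libraries of the 2 PHGDH-siRNA groups deviated together from their group means, with correlations across genes of 0.459 to 0.775. No label states a pairing, and the replicate 2 pair can raise all of these values. Mix results whose call changes are also given with replicate number as a block in that arm, called the paired fit here. Reads recovered from the FPKM values (fragments per gene, scaled for gene length and library size) came to 16403845 to 20901128 per library, and 21348 to 22510 genes were above 0. All 14 keratinocyte markers looked at averaged above 1 FPKM. The summed levels of fibroblast, melanocyte, leukocyte and endothelial markers stayed at or below 2.11, 1.26, 2.96 and 0.983 FPKM in every library, with TYR, PTPRC, MS4A1 and KDR listed at 0 throughout. Of these markers only CD14, listed for leukocytes, averaged above 1 FPKM, at 1.60 FPKM with a highest library of 2.83 FPKM. PHGDH had 19.1, 13.3 and 11.5 FPKM in PHGDH-siRNA+Mix against 31.9, 31.2 and 26.6 FPKM in Control-siRNA+Mix. It had 23.7, 20.1 and 16.9 FPKM in PHGDH-siRNA against 36.5, 56.2 and 45.8 FPKM in Control-siRNA. The groups did not overlap, but limma called neither difference (log2 fold change -1.01, adjusted p = 0.2 with Mix, and -1.14, adjusted p = 0.128 without).

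The 8 factors spanned a wide range of transcript levels. Per length, and averaged over all 12 libraries, TP63 was highest at 47.4 FPKM, followed by KLF5 at 26.2 and KLF4 at 12.8 FPKM. OVOL1 averaged 3.72, GRHL3 2.82 and GRHL1 1.83 FPKM, and PRDM1 and ZNF750 were lowest at 0.653 and 0.405 FPKM. Neighbours in this order overlapped over the 12 libraries in every case. Within single libraries TP63 was above KLF5, KLF4 above OVOL1, and GRHL1 above PRDM1 in all 12. KLF5 was above KLF4 in 9 of 12, OVOL1 above GRHL3 and GRHL3 above GRHL1 in 10 of 12 each, and PRDM1 above ZNF750 in 8 of 12, so these neighbours were not separated. The ratio of the highest to the lowest library was between 2.38 and 4.95 for 6 of the factors, 21.1 for ZNF750 and 36.9 for PRDM1. All 8 entered the test, which took genes with a mean of at least 0.5 FPKM in at least 1 group (14577 genes). ZNF750 entered only through the PHGDH-siRNA+Mix mean of 0.760 FPKM, which rests on replicate 2. PRDM1 entered only through its means with Mix, the groups in which it was high, so its place among the genes tested is not independent of its Mix difference.

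**Figure D1:**
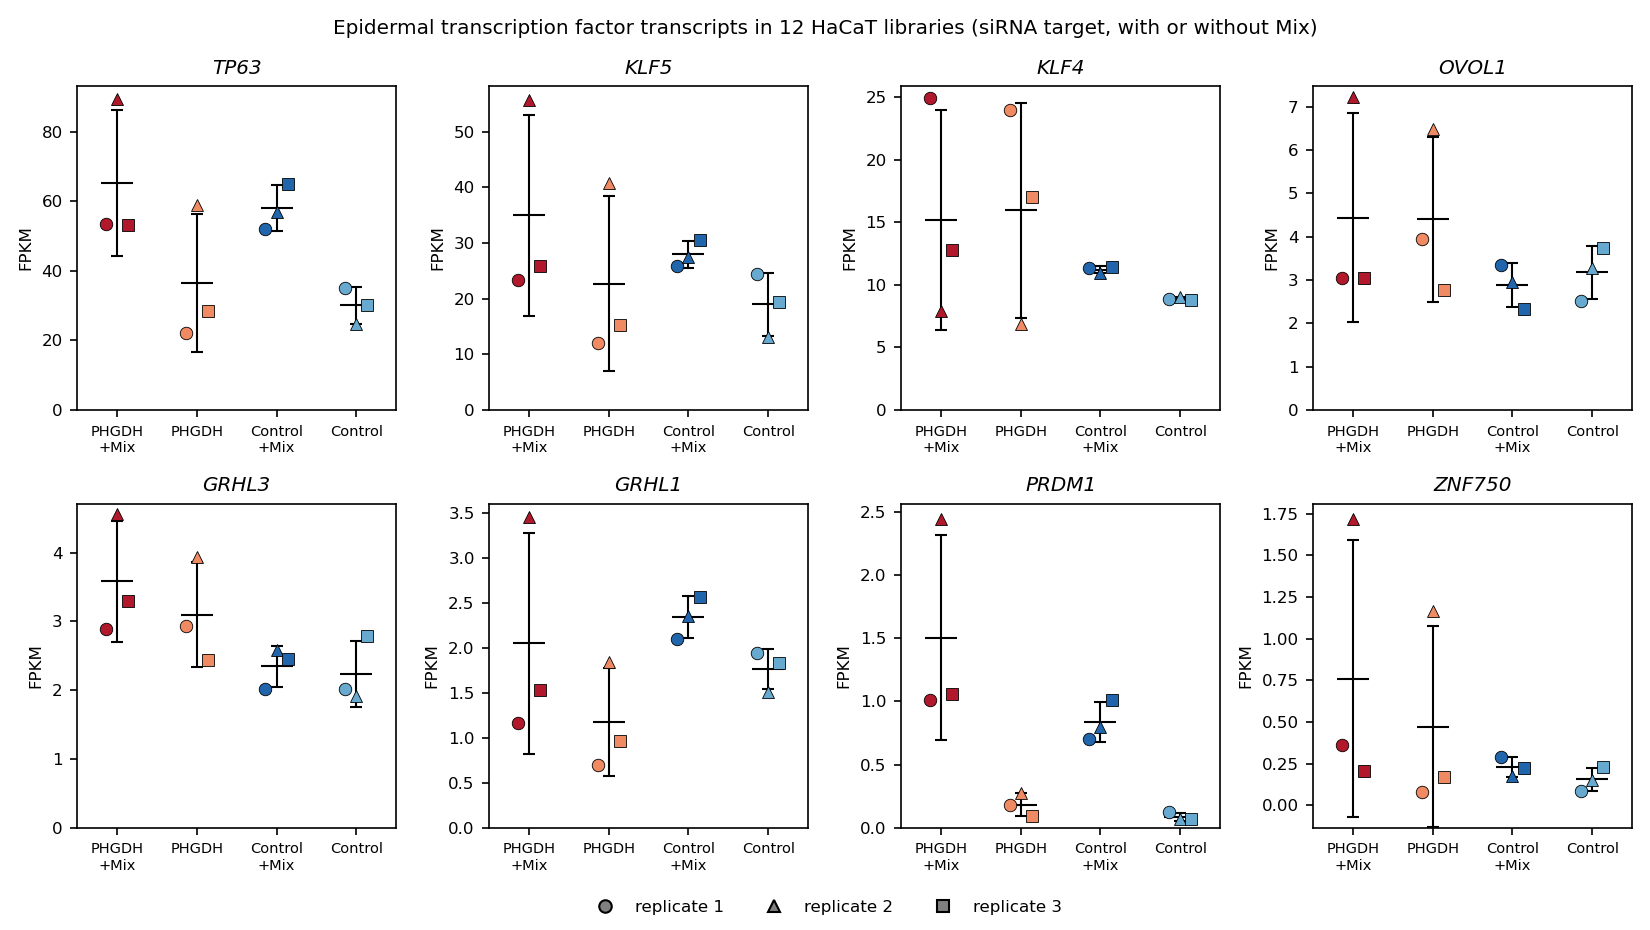
FPKM (vertical axes, linear, a scale of its own for each gene) of the 8 factors in each of the 12 libraries, by group from left to right: PHGDH-siRNA+Mix, PHGDH-siRNA, Control-siRNA+Mix and Control-siRNA. Points are libraries, with replicate 2 as triangles, and bars are means ± SD (n = 3). PRDM1 lies between 0.700 and 2.44 FPKM in the 6 libraries with Mix and between 0.0662 and 0.277 FPKM in the 6 without, and the replicate 2 library of PHGDH-siRNA+Mix is the highest of the 12 for 7 of the 8 factors.

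With Mix, PRDM1 was higher in both siRNA arms, by 8.22-fold in the mean under PHGDH siRNA and by 9.74-fold under control siRNA, and it was the only one of the 8 whose change passed the test with libraries taken as independent (adjusted p = 0.00685 and 0.0309). TP63, KLF5 and GRHL1 were also higher with Mix in the mean of both arms without passing, and KLF4 in that of the control arm. The means of GRHL3 and ZNF750 were higher with Mix in both arms too, with overlapping groups, and neither passed. OVOL1 did not pass in either arm. Of all genes tested, 8.86% were called in the PHGDH-siRNA arm, 5.22% upward, and 9.54% in the control arm, 5.62% upward, against 1 of the 8 factors in each. In the paired fit, 4 of the 8 were called upward in the PHGDH-siRNA arm, TP63, KLF5, GRHL1 and PRDM1, where 22.5% of all genes were called, 12.1% upward and 10.4% downward. That fit has a smaller spread, which the control arm shares, and there it called TP63 and PRDM1, as against 22.6% of all genes, 12.1% upward and 10.5% downward. PHGDH siRNA against control siRNA called 0 of the 8 in either Mix condition, as against 0.0206% of all genes with Mix and 0.0412% without. In these bulk samples, fewer cells with a transcript and less of it per cell cannot be told apart.

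TP63 (ENSG00000073282, chr3:189631416-189897279, plus strand), the basal identity factor, was 1.79-fold higher with Mix in the PHGDH-siRNA arm and 1.93-fold higher in the control arm, but the test across all 12 libraries, taken as independent, did not call it. It had 53.4, 89.5 and 53.02 FPKM in PHGDH-siRNA+Mix against 22.1, 58.9 and 28.3 FPKM in PHGDH-siRNA. It had 52.0, 56.9 and 65.0 FPKM in Control-siRNA+Mix against 35.1, 24.7 and 30.2 FPKM in Control-siRNA. The control groups did not overlap, and in the PHGDH-siRNA arm the only library without Mix that reached those with it was replicate 2. The means were 65.3 ± 20.9 against 36.4 ± 19.7 FPKM in the PHGDH-siRNA arm (log2 fold change 0.90, SE 0.321, adjusted p = 0.118) and 58.0 ± 6.56 against 30.0 ± 5.19 FPKM in the control arm (0.94, SE 0.321, adjusted p = 0.103). Without the replicate 2 pair TP63 was called in both arms (1.06, adjusted p = 0.00501 in the PHGDH-siRNA arm, and 0.94, adjusted p = 0.0025 in the control arm). Without that pair 15.1% of all genes were called in the PHGDH-siRNA arm and 21% in the control arm. Leaving out PHGDH-siRNA replicate 2 alone also gave a call in both arms (1.31, adjusted p = 0.00749, and 0.94, adjusted p = 0.02), as did a fit of the control groups alone in the control arm (adjusted p = 0.0087). The paired fit called TP63 in both arms too, at 0.90 (SE 0.156, adjusted p = 0.0035) in the PHGDH-siRNA arm and 0.94 (SE 0.156, adjusted p = 0.0028) in the control arm. In the PHGDH-siRNA arm each library with Mix was above the same-numbered one without it, though no label states a pairing. Of the alternatives run, 5 of 25 called TP63 in the PHGDH-siRNA arm and 5 of 24 in the control arm. A fit of the PHGDH-siRNA groups alone did not call it there (adjusted p = 0.36). Neither did voom on recovered reads in either arm (adjusted p = 0.113 under PHGDH siRNA and 0.0993 under control siRNA). The same held with no filter on low values (adjusted p = 0.274 and 0.233). Gene counts do not separate the transcripts with and without the N-terminal transactivation domain, and the first start of the gene is that of the longer form.

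TP73, a paralog of TP63, was low and went the other way with Mix. It averaged 0.283 FPKM in PHGDH-siRNA+Mix against 1.60 FPKM in PHGDH-siRNA (log2 fold change -0.96, adjusted p = 0.0304) and 0.326 FPKM in Control-siRNA+Mix against 1.85 FPKM in Control-siRNA (-1.10, adjusted p = 0.0153), so it fell in both arms. TP73 was not called between siRNAs. Its log2 fold changes were taken on log2(FPKM + 1), which understates the change of so low a gene.

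KLF5 (ENSG00000102554, chr13:73054976-73077542, plus strand), a zinc finger activator linked to dividing basal cells, had 23.4, 55.8 and 25.8 FPKM in PHGDH-siRNA+Mix against 12.01, 40.8 and 15.3 FPKM in PHGDH-siRNA. It had 25.9, 27.5 and 30.6 FPKM in Control-siRNA+Mix against 24.4, 13.2 and 19.4 FPKM in Control-siRNA. The PHGDH-siRNA groups overlapped through replicate 2, and the control groups lay apart by a small margin. The log2 fold change with Mix was 0.69 (SE 0.428, adjusted p = 0.394) in the PHGDH-siRNA arm and 0.58 (SE 0.428, adjusted p = 0.507) in the control arm, so KLF5 did not pass in either. In the paired fit it rose in the PHGDH-siRNA arm (SE 0.191, adjusted p = 0.0298) and did not pass in the control arm (adjusted p = 0.0597). Leaving out the replicate 2 pair gave 0.81 (adjusted p = 0.0536) and 0.58 (adjusted p = 0.0722).

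KLF4 (ENSG00000136826, chr9:107484852-107490482, minus strand), needed in mouse for the skin barrier, had 25.0, 7.89 and 12.8 FPKM in PHGDH-siRNA+Mix against 24.0, 6.89 and 17.0 FPKM in PHGDH-siRNA. It had 11.3, 10.9 and 11.4 FPKM in Control-siRNA+Mix against 8.86, 9.07 and 8.79 FPKM in Control-siRNA. In the control groups the libraries lay close together and those with Mix were the higher, whereas the PHGDH-siRNA groups overlapped fully and were spread widely. The log2 fold change with Mix was -0.05 (SE 0.413, adjusted p = 0.964) in the PHGDH-siRNA arm and 0.30 (SE 0.413, adjusted p = 0.759) in the control arm. In a fit of the control groups alone, which uses their own small spread, the control-arm difference was called (adjusted p = 0.026). That fit called 2642 of the 14577 genes tested, against 1391 with all 12 libraries. Of 24 alternatives it was the 1 that called KLF4 in the control arm. The fit without the replicate 2 pair (adjusted p = 0.374) and the paired fit (adjusted p = 0.0612) did not.

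Of 13 tested genes of the KLF family, 2 were called with Mix, the same in both arms. Without the replicate 2 pair 3 rose in the PHGDH-siRNA arm and 5 in the control arm, and in the paired fit 6 rose and 1 fell in the PHGDH-siRNA arm and 4 rose in the control arm. Of all genes, 8.86% were called in the PHGDH-siRNA arm and 9.54% in the control arm with all 12 libraries. These shares were 15.1% and 21% without the pair, and 22.5% and 22.6% in the paired fit. KLF7, whose product is a zinc finger factor like KLF4 and KLF5, rose to 13.5 FPKM in PHGDH-siRNA+Mix against 4.25 FPKM in PHGDH-siRNA (log2 fold change 1.498, adjusted p = 0.00864), and to 11.1 FPKM in Control-siRNA+Mix against 2.84 FPKM in Control-siRNA (1.66, adjusted p = 0.00429). KLF6 rose to 20.1 against 9.72 FPKM in the PHGDH-siRNA arm (0.96, adjusted p = 0.0227) and to 16.03 against 6.49 FPKM in the control arm (1.19, adjusted p = 0.00717). The median difference of the family was 0.26 in the PHGDH-siRNA arm and 0.30 in the control arm, against medians near 0 for all genes.

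GRHL3 (ENSG00000158055, chr1:24319322-24364482, plus strand) and GRHL1 (ENSG00000134317, chr2:9951693-10002277, plus strand) encode grainyhead-like factors, which in mouse act in barrier formation and wound closure (GRHL3) and in desmosomal cadherin expression (GRHL1). GRHL3 had 2.89, 4.57 and 3.29 FPKM in PHGDH-siRNA+Mix against 2.93, 3.93 and 2.44 FPKM in PHGDH-siRNA. It had 2.01, 2.58 and 2.45 FPKM in Control-siRNA+Mix against 2.01, 1.92 and 2.78 FPKM in Control-siRNA. With Mix, the 3 PHGDH-siRNA libraries all lay above the 3 control ones, while with and without Mix overlapped in both arms. The difference between siRNAs with Mix was 0.44 (SE 0.179, 95% interval 0.04 to 0.84), with a raw p of 0.0324 in limma that did not pass adjustment (adjusted p = 0.813); 5.72% of all genes had a raw p under 0.05 in that comparison.

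GRHL1 had 1.16, 3.46 and 1.54 FPKM in PHGDH-siRNA+Mix against 0.699, 1.85 and 0.971 FPKM in PHGDH-siRNA. It had 2.10, 2.35 and 2.57 FPKM in Control-siRNA+Mix against 1.95, 1.51 and 1.84 FPKM in Control-siRNA. Apart from the replicate 2 pair, the PHGDH-siRNA libraries were below every control library of the same Mix condition. On these fewer libraries the ranges of 31.2% of all genes lay apart with Mix, 15.8% downward, and of 24.3% without Mix, 11.5% downward. With all libraries the difference between siRNAs was -0.20 with Mix (SE 0.256, adjusted p = 0.979) and -0.38 without (SE 0.256, adjusted p = 0.931). Without the pair it was -0.51 (adjusted p = 0.127) and -0.59 (adjusted p = 0.0816), which did not pass. With Mix against without, the GRHL1 difference was 0.45 under PHGDH siRNA (adjusted p = 0.344) and 0.27 under control siRNA (adjusted p = 0.623). The paired fit called the PHGDH-siRNA difference (SE 0.103, adjusted p = 0.0126) but not the control one (adjusted p = 0.0897).

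Their paralog GRHL2, a regulator of epithelial cell junctions, was the only one of 6 tested genes of this family called with Mix with all 12 libraries taken as independent. It fell to 7.67 FPKM in PHGDH-siRNA+Mix against 11.2 FPKM in PHGDH-siRNA (log2 fold change -0.50, adjusted p = 0.0141) and to 7.63 FPKM in Control-siRNA+Mix against 12.9 FPKM in Control-siRNA (-0.68, adjusted p = 0.002). Of 12 epithelial genes listed as known targets of grainyhead-like proteins, not all of them junction genes, 0 were called with Mix in either arm. Their median difference was 0.13 in the PHGDH-siRNA arm and 0.14 in the control arm. With the replicate 2 pair left out, 2 of these listed targets rose in each arm, CLDN1 and TGM1, named after their values were seen. TGM1 is also among the terminal differentiation genes counted below. UBP1, a further gene of the grainyhead-like family, then fell in the control arm (-0.31, adjusted p = 0.0417). The paired fit also called 2 of the listed targets upward in each arm.

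OVOL1 (ENSG00000172818, chr11:65787022-65797219, plus strand), a zinc finger repressor that in mouse limits the growth of committed cells, showed little difference with Mix. It had 3.05, 7.22 and 3.05 FPKM in PHGDH-siRNA+Mix against 3.95, 6.49 and 2.76 FPKM in PHGDH-siRNA. It had 3.34, 2.95 and 2.33 FPKM in Control-siRNA+Mix against 2.52, 3.27 and 3.74 FPKM in Control-siRNA. All groups overlapped, and only the replicate 2 pair exceeded 4 FPKM. The Mix difference was -0.02 (95% interval -0.68 to 0.65) in the PHGDH-siRNA arm and -0.11 (-0.77 to 0.56) in the control arm. OVOL1 shares 1044 exon bases, 27.1% of its own, with an antisense gene, AP001266.1, which was listed at 0 in every library. No source used here says whether the counting used strand.

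ZNF750 (ENSG00000141579, chr17:82829435-82840578, minus strand), a p63 target whose product turns on differentiation genes, was near the limit of detection outside the replicate 2 pair. It had 0.360, 1.72 and 0.204 FPKM in PHGDH-siRNA+Mix against 0.0813, 1.17 and 0.173 FPKM in PHGDH-siRNA. It had 0.294, 0.176 and 0.226 FPKM in Control-siRNA+Mix against 0.0896, 0.151 and 0.228 FPKM in Control-siRNA. The pair held 118 and 83 reads and the other libraries 5 to 26. With Mix the difference was 0.23 (SE 0.313, adjusted p = 0.73) in the PHGDH-siRNA arm and 0.09 (SE 0.313, adjusted p = 0.916) in the control arm. Without the pair the difference in the PHGDH-siRNA arm was 0.18 (adjusted p = 0.427). ZNF750 lies inside TBCD on the opposite strand, with 0 shared exon bases, and TBCD itself fell with Mix, to 4.03 FPKM in PHGDH-siRNA+Mix against 6.80 FPKM in PHGDH-siRNA (adjusted p = 0.0138) and to 3.96 FPKM in Control-siRNA+Mix against 6.49 FPKM in Control-siRNA (adjusted p = 0.0198).

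PRDM1 (ENSG00000057657, hg38 chr6:106086320-106109939, plus strand) encodes BLIMP1, a zinc finger repressor best known for the final differentiation of B cells, which in mouse skin acts in sebaceous and outer epidermal cells. It had 1.01, 2.44 and 1.06 FPKM in PHGDH-siRNA+Mix against 0.180, 0.277 and 0.0923 FPKM in PHGDH-siRNA. It had 0.700, 0.800 and 1.01 FPKM in Control-siRNA+Mix against 0.121, 0.0700 and 0.0662 FPKM in Control-siRNA. Every library with Mix lay above every library without it. The means were 1.505 ± 0.813 against 0.183 ± 0.0925 FPKM in the PHGDH-siRNA arm (SD, n = 3 each), an 8.22-fold higher level, and 0.837 ± 0.158 against 0.0859 ± 0.0308 FPKM in the control arm, a 9.74-fold higher level. On the log2(FPKM + 1) scale, which understates the change of so low a gene, the difference was 1.04 (SE 0.191, 95% interval 0.62 to 1.46, adjusted p = 0.00685) in the PHGDH-siRNA arm and 0.76 (SE 0.191, 95% interval 0.34 to 1.18, adjusted p = 0.0309) in the control arm.

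The PRDM1 values rest on few reads. In PHGDH-siRNA+Mix the libraries held 125 to 289 reads and in PHGDH-siRNA 11 to 34, while those of Control-siRNA+Mix held 78 to 123 and those of Control-siRNA 8 to 14. On recovered reads, with voom and TMM scaling, the log2 fold change was 3.01 in the PHGDH-siRNA arm (adjusted p = 0.00279) and 3.26 in the control arm (adjusted p = 0.00419). In the control arm, the call was lost when any 1 of its 6 libraries was left out (adjusted p = 0.0622 to 0.128) and when no filter on low values was set (adjusted p = 0.0714). In the PHGDH-siRNA arm it was kept without any 1 library, and lost when only those 2 groups were fitted (adjusted p = 0.107), though not when that fit held the replicate block (adjusted p = 0.0171). Both calls stood without the replicate 2 pair, at 0.84 (adjusted p = 0.00202) and 0.76 (adjusted p = 0.000862). Between siRNAs, PRDM1 differed by 0.40 with Mix (SE 0.191, adjusted p = 0.9), with no overlap between the groups, and by 0.12 without Mix (adjusted p = 1). The interaction, the Mix difference of the PHGDH-siRNA arm less that of the control arm, was 0.28 (SE 0.269, adjusted p = 1).

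Among all genes tested, those whose profile over the 12 libraries was nearest to that of PRDM1 were LTBP2, B4GALT1 and PNRC1. The root-mean-square difference between centred log2(FPKM + 1) profiles was 0.0957 for LTBP2, 0.107 for B4GALT1 and 0.135 for PNRC1, and the median over all genes was 0.572. The libraries differ in Mix as well as in siRNA, so any gene with a like response to Mix and little other variation comes out near.

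Counted by ranges alone, 5 of the 8 factors (TP63, KLF5, KLF4, GRHL1 and PRDM1) were higher in every Control-siRNA+Mix library than in any Control-siRNA library, where the ranges of 37.8% of all genes lay apart, 19.1% upward. In the PHGDH-siRNA arm this held for PRDM1 alone, against 21.5% of all genes, 11.3% upward. Between siRNAs the ranges lay apart for 2 factors with Mix, GRHL3 and PRDM1, both higher under PHGDH siRNA, against 14.3% of all genes, 7.01% upward, and for 0 factors without Mix, against 10.2%. With 3 libraries a side, the smallest p of an exact permutation test is 0.1, so range counts carry no test.

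**Figure D2:**
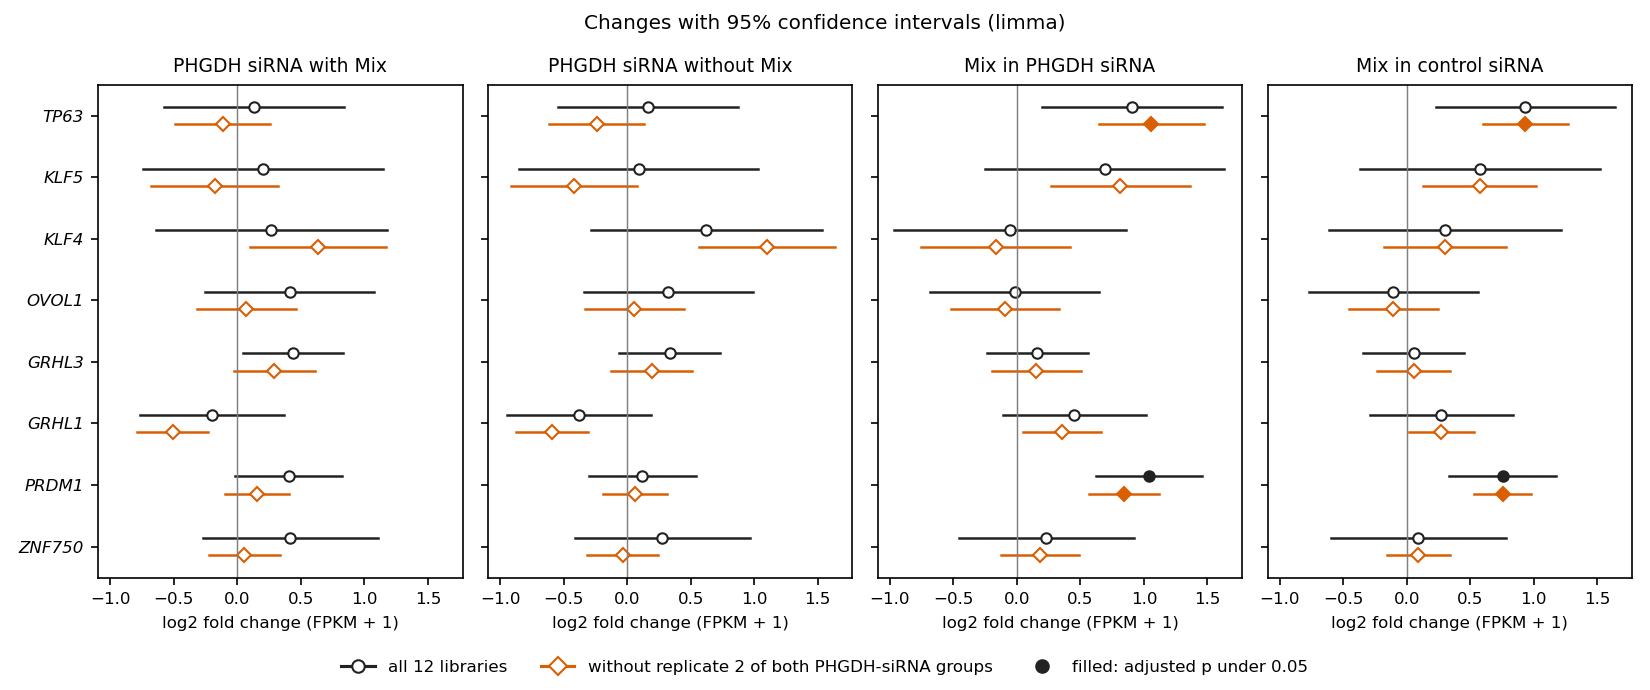
Differences in log2(FPKM + 1) with 95% confidence intervals from limma (horizontal axes) for the 8 factors in the comparisons of siRNA with and without Mix and of Mix in each siRNA arm. Black circles use all 12 libraries and orange diamonds leave out replicate 2 of both PHGDH-siRNA groups; filled symbols have an adjusted p under 0.05. PRDM1 is filled in both Mix panels, and TP63 only without the pair.

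Between siRNAs, 0 of the 8 factors were called by limma. By raw p under 0.05, GRHL3 with Mix was the only factor, against 5.72% of all genes with Mix and 6.41% without. Among the 8, on the log2(FPKM + 1) scale, the largest difference with Mix was the 0.44 of GRHL3 and the largest without was the 0.62 of KLF4 (SE 0.413, adjusted p = 0.931), which differed by 0.27 with Mix (SE 0.413, adjusted p = 0.979). This scale understates the differences of low genes, so the order belongs to it alone. With Mix, ZNF750 averaged 0.760 FPKM under PHGDH siRNA, resting on replicate 2, against 0.232 under control siRNA. PRDM1 averaged 1.505 against 0.837 FPKM there, and GRHL3 3.58 against 2.35 FPKM. For TP63 the difference was 0.13 with Mix (95% interval -0.58 to 0.84) and 0.16 without (-0.55 to 0.87), and for KLF5 0.20 (-0.74 to 1.15) and 0.09 (-0.85 to 1.03). The interaction called 0 of the 8 factors and 0% of all genes by limma, also with voom; 250 genes (1.72%) and none of the factors had a raw p under 0.05.

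The siRNA differences changed when the replicate 2 pair was left out. KLF4 was higher under PHGDH siRNA in every remaining library, by 0.63 with Mix (SE 0.235, adjusted p = 0.327) and by 1.10 without (SE 0.235, adjusted p = 0.0845); 15.5% of all genes were likewise apart and higher with Mix, and 12.8% without. TP63 then changed sign, to -0.12 with Mix (adjusted p = 0.917) and -0.24 without (adjusted p = 0.633). KLF5 did too, at -0.18 with Mix (adjusted p = 0.89) and -0.42 without (adjusted p = 0.515). No factor passed the test without the pair, when limma called 0.309% of all genes with Mix and 0.707% without.

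The replicate 2 libraries of the PHGDH-siRNA groups held a pattern of their own across the factors. In PHGDH-siRNA+Mix, replicate 2 was the highest of all 12 libraries for 7 of the 8, and KLF4, the remaining factor, had its lowest levels of all in the pair. Replicate 2 exceeded the mean of replicates 1 and 3 by 2.27 times in PHGDH-siRNA+Mix and 2.99 times in PHGDH-siRNA for KLF5, by 1.68 and 2.34 times for TP63, and by 2.56 and 2.21 times for GRHL1. For OVOL1 the ratios were 2.37 and 1.93, for PRDM1 2.36 and 2.04, for GRHL3 1.48 and 1.46, and for ZNF750 6.09 and 9.15. KLF4 was 2.39 and 2.98 times lower. In the control arms the same ratio stayed between 0.602 and 1.16 for all 8 factors.

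On the log2(FPKM + 1) scale, TP63, KLF5, GRHL1, OVOL1 and ZNF750 were more than 0.5 higher in replicate 2 of both PHGDH-siRNA groups, as were 11.1% of all genes, and KLF4 was more than 0.5 lower, as were 11.2%. Past 1 log2 unit in both groups were KLF5 and KLF4, in a background of 4.21%. In both control groups together, 0 of the factors were past 0.5 in the same direction, as were 0.288% of all genes upward and 0.357% downward. The summed level of 14 keratinocyte markers, TP63 among them, was 10550 FPKM in replicate 2 of PHGDH-siRNA+Mix and 6692 to 7799 FPKM in the other libraries of the group. It was 7949 FPKM in replicate 2 of PHGDH-siRNA and 3116 to 3388 FPKM in the others. PHGDH in the pair lay within the range of its groups, and the part of the marker level in the factors' differences was not tested.

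**Figure D3:**
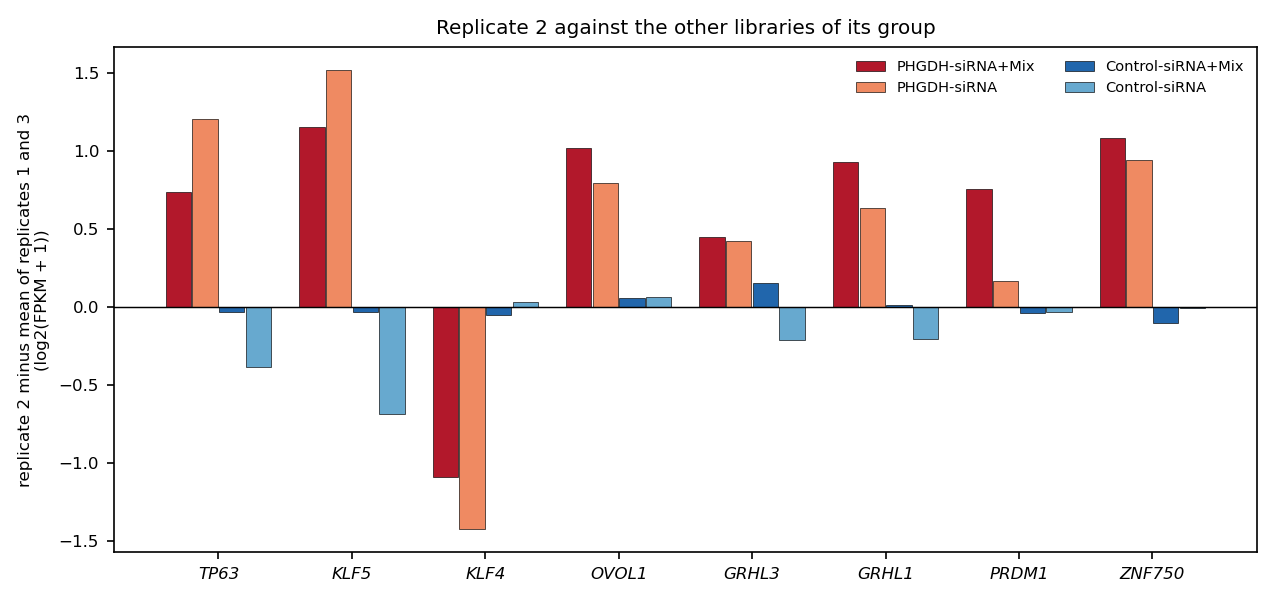
Replicate 2 minus the mean of replicates 1 and 3 of the same group, in log2(FPKM + 1) (vertical axis), for the 8 factors (horizontal axis) in the 4 groups. In both PHGDH-siRNA groups (red and orange) 7 factors are above 0 and KLF4 is below -1; in the control groups (blue) no factor passes 0.5 in both.

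Genes that act with or under these factors were read from lists. Of 22 basal genes with known p63 binding or dependence, 21 were tested, and with Mix 10 rose and 2 fell in the PHGDH-siRNA arm, and 10 rose and 1 fell in the control arm. Of all genes, 3.64% fell in the PHGDH-siRNA arm and 3.92% in the control arm, beside the upward shares given above. The median difference was 0.56 in the PHGDH-siRNA arm and 0.64 in the control arm. Without the replicate 2 pair 12 rose and 3 fell in the PHGDH-siRNA arm, and 13 rose and 4 fell in the control arm, and in the paired fit 12 rose and 5 fell, and 13 rose and 5 fell. LAMA3, a chain of the basement membrane laminin of skin, rose by 2.12 on the log2 scale in the PHGDH-siRNA arm (adjusted p = 1.04e-05) and by 2.05 in the control arm (adjusted p = 8.99e-06). COL17A1, the hemidesmosomal collagen, was higher by 1.18 (adjusted p = 0.000211) under PHGDH siRNA and by 1.21 (adjusted p = 0.000125) under control siRNA. For CDH3, P-cadherin, the differences were 1.10 (adjusted p = 0.00034) and 1.24 (adjusted p = 0.000112). The falling members, named after their values were seen, were the growth factor receptor gene FGFR2 in both arms and the Notch ligand gene JAG2 in the PHGDH-siRNA arm. KRT5 and KRT14, the basal keratin genes, were called in neither arm with all 12 libraries taken as independent. Without the pair KRT14 rose under PHGDH siRNA (0.90, adjusted p = 0.0186) and under control siRNA (0.92, adjusted p = 0.00495). KRT5 fell under control siRNA (-0.56, adjusted p = 0.0344), as did KRT15 (-1.11, adjusted p = 0.00353), a basal keratin gene named after its values were seen.

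Of 34 terminal differentiation genes, 24 were tested, and with Mix 8 rose and 1 fell in the PHGDH-siRNA arm, and 5 rose and 2 fell in the control arm. SPRR2A, a cornified envelope precursor, rose to 6.95 FPKM in PHGDH-siRNA+Mix against 1.00 FPKM in PHGDH-siRNA and to 6.22 FPKM in Control-siRNA+Mix against 0.559 FPKM in Control-siRNA. The SPRR2 genes are near copies of each other, and no source used here says how reads that fit several of them were counted. ALOXE3, a lipoxygenase of barrier lipid formation, rose to 4.63 against 0.893 FPKM in the PHGDH-siRNA arm and to 3.70 against 0.349 FPKM in the control arm. IVL, the gene of the envelope protein involucrin, fell to 1.19 against 3.20 FPKM in the PHGDH-siRNA arm (adjusted p = 0.0187) and to 1.15 against 4.31 FPKM in the control arm (adjusted p = 0.00352); it and FLG, filaggrin, which fell in the control arm, were named after their values were seen. When the replicate 2 pair was left out, 11 rose and 3 fell in the PHGDH-siRNA arm, where 8.23% of all genes rose and 6.85% fell. In the control arm 11 then rose and 4 fell, against 11.2% and 9.86% of all genes. The paired fit gave 11 up and 4 down in each arm.

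Of 40 other epidermal transcription factors, 29 were tested, and with Mix 5 rose and 3 fell in the PHGDH-siRNA arm, and 6 rose and 5 fell in the control arm. BHLHE40, a basic helix-loop-helix repressor, rose to 54.0 FPKM in PHGDH-siRNA+Mix against 19.7 FPKM in PHGDH-siRNA and to 54.3 FPKM in Control-siRNA+Mix against 17.2 FPKM in Control-siRNA (adjusted p = 0.000121 and 3.32e-05). EHF, an ETS factor of epithelia, rose to 34.8 against 15.4 FPKM in the PHGDH-siRNA arm (adjusted p = 0.00929) and to 37.8 against 18.6 FPKM in the control arm (adjusted p = 0.0224). GATA3, a zinc finger factor of epidermis and hair follicle, fell to 2.70 against 4.07 FPKM in the PHGDH-siRNA arm (adjusted p = 0.0437) and to 2.45 against 4.92 FPKM in the control arm (adjusted p = 0.00256). Without the pair 6 rose and 5 fell in the PHGDH-siRNA arm and 8 rose and 7 fell in the control arm, and in the paired fit 8 rose and 6 fell, and 7 rose and 8 fell. The median difference of this list was -0.13 in the PHGDH-siRNA arm and -0.04 in the control arm. The remaining genes called, named after their values were seen, were KLF6, KLF7, BNC1 (up) and GRHL2 and DLX3 (down) in both arms, and CEBPB (up), CEBPA and DLX5 (down) in the control arm.

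Of 20 tested Notch pathway genes, 0 rose and 2 fell with Mix in the PHGDH-siRNA arm, LFNG and JAG2, and LFNG alone fell in the control arm. Without the replicate 2 pair 1 rose and 3 fell in the PHGDH-siRNA arm and 3 rose and 5 fell in the control arm, and in the paired fit 3 rose and 4 fell, and 4 rose and 6 fell. Of 6 tested mesenchymal transition genes, known from other epithelia to be repressed by GRHL and OVOL proteins, 0 were called in either arm with all 12 libraries taken as independent. Without the pair, and also in the paired fit, 1 rose and 2 fell in the PHGDH-siRNA arm and 1 rose and 1 fell in the control arm. VIM, whose product is a mesenchymal filament protein, averaged between 0.0857 and 0.177 FPKM in the 4 groups and was not tested. Levels in the list differed widely, and 6 of its 11 genes passed the filter. FN1 averaged 248 FPKM in PHGDH-siRNA+Mix and 228 FPKM in Control-siRNA+Mix, and SNAI2 17.1 and 11.8 FPKM. FN1 was the gene that rose without the pair (1.25 under PHGDH siRNA and 0.92 under control siRNA). FN1 and SNAI2 were named after their values were seen. Of 9 tested PRDM-family genes, PRDM1 and PRDM8 rose in both arms, PRDM8 to 3.89 against 1.44 FPKM in the PHGDH-siRNA arm (adjusted p = 0.00704) and to 2.85 against 1.13 FPKM in the control arm (adjusted p = 0.0138). Neither tested OVOL gene was called. Between siRNAs, with or without Mix, and for the interaction, 0 genes of any of these lists were called with all 12 libraries. Without the pair, SOX9, a factor of hair follicle stem cells, was called higher under PHGDH siRNA, by 0.74 with Mix (adjusted p = 0.0301) and by 0.76 without (adjusted p = 0.0184), and KRT15, a basal keratin gene, was called lower without Mix (-1.29, adjusted p = 0.0432); both were named after their values were seen. The summed keratinocyte markers also differed with Mix. They ranged over 6692 to 10550 FPKM in PHGDH-siRNA+Mix against 3116 to 7949 FPKM in PHGDH-siRNA, and over 6333 to 6878 FPKM in Control-siRNA+Mix against 2351 to 3624 FPKM in Control-siRNA. Their part in the Mix differences of the factors was not tested.

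**Figure D4:**
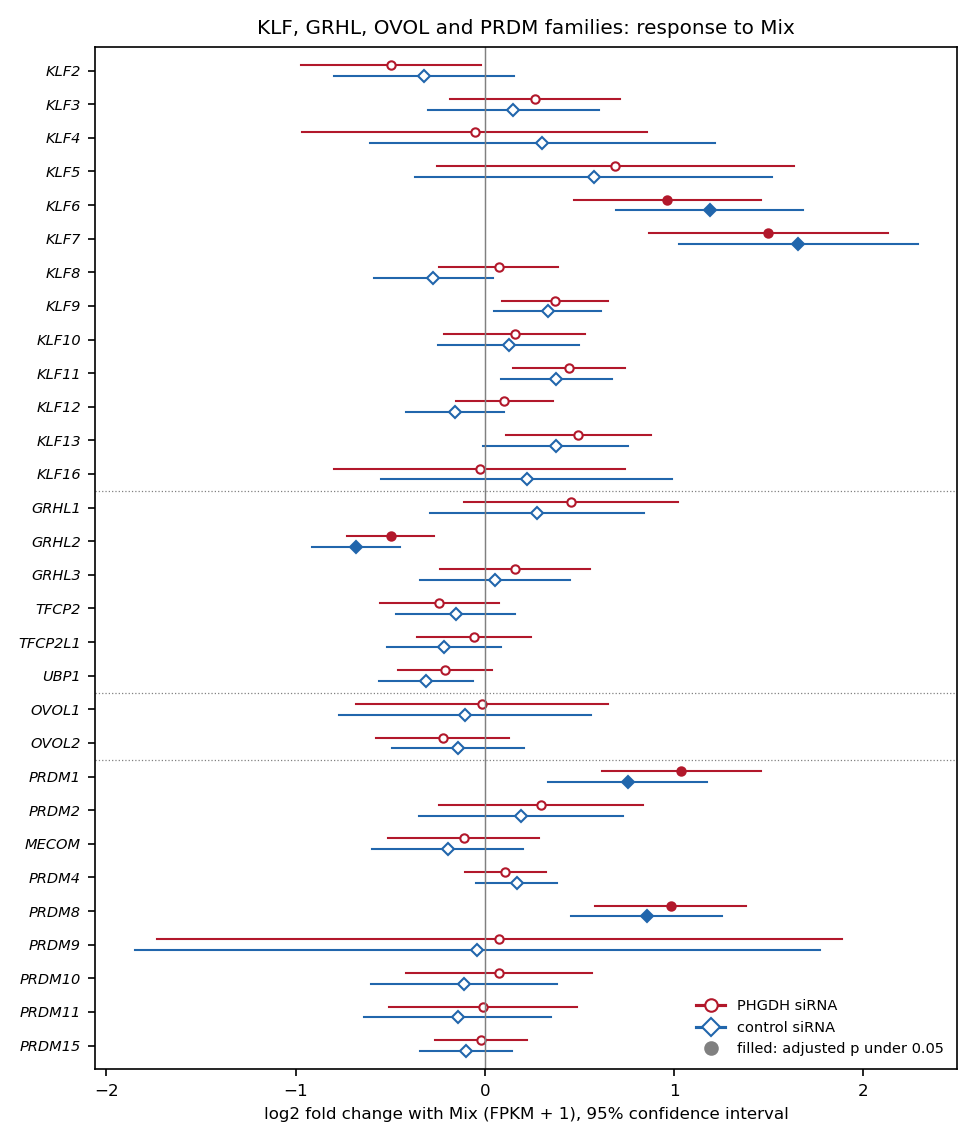
Mix difference in log2(FPKM + 1) with 95% confidence intervals from limma (horizontal axis) for all tested genes of the KLF, grainyhead-like, OVOL and PRDM families, which dotted lines separate. Red circles are the PHGDH-siRNA arm and blue diamonds the control-siRNA arm; filled symbols have an adjusted p under 0.05. GRHL2 falls and KLF6, KLF7, PRDM1 and PRDM8 rise in both arms.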

How the data were processed

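RNA of 12 HaCaT libraries was measured by RNA-seq. Per the labels' protocols, RNAiso Plus served for RNA and the NEBNext Ultra RNA kit for libraries. The authors deposited FPKM values for 58735 genes. The submitters' processing notes name the build hg38 and the tools featureCounts 1.5.0-p3, HISAT2 2.0.5 and CASAVA, without roles. No source used here gives the formula of the values, the handling of shared reads or the use of strand. Gene positions and lengths are those of the deposited table, and 8 of 8 factors matched GENCODE release 29 in start and end.

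FPKM times gene length fell on steps of 1 read in each library: among values of at most 200 reads, 100% came within 0.05 of a whole read, and reads were recovered on that step. Precision is set by the number of libraries and, for the lowest genes, by counting error.

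All 12 columns were used, and columns left unused numbered 0. Tests covered the 14577 genes that averaged at least 0.5 FPKM in any group, fitted on log2(FPKM + 1) with limma 3.58.1 in R 4.3.3 (trend and robust options), 1 mean per group, 8 residual degrees of freedom, two-sided p, Benjamini-Hochberg adjustment over all genes of a comparison and a threshold of 0.05. The 5 comparisons were PHGDH siRNA with Mix and without, Mix under either siRNA, and their interaction. The script was tested on simulated data. Alternatives were other pseudocounts and filters, median-of-ratios scaling, voom on recovered reads, no robust option, a replicate block, a fit of the compared groups, and libraries left out. A library left out did not change the set of genes tested.

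Same-numbered libraries were checked for pairing by the correlation of their deviations from the group means. In the PHGDH-siRNA arm it exceeded 0.1 in 3 of 3 pairs (0.459 to 0.775). Deviations from a group mean cancel within the group, so these values are not independent, and the replicate 2 pair can raise all of them. The differences between replicates 1 and 3, which leave that pair out, correlated at 0.366 with and without Mix. In the control arm the same correlation was -0.296. No label states a pairing, and these values do not establish one. The block fit of the PHGDH-siRNA arm is printed where it changes a call. It is an alternative chosen after the data were seen. The other 5 pairs of groups had correlations of -0.387 to 0.291, at most 1 of 3 above 0.1 in each, and no pairing was assumed for them. The 8 factors, the lists of genes and the naming rule (all 8 factors; up to 4 called genes per list by adjusted p; the 3 profiles nearest to a called factor) were chosen with earlier results of these data known. Figures were drawn with matplotlib 3.10.9. A comparison of protein sequences was not made. Some genes of the lists are counted but not reported here by name.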

Additional observations from a re-analysis of the deposited data

How the results depend on the processing

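With all 12 libraries, limma called 1 of the 8 factors, PRDM1, with Mix in each arm. In the control arm the count was 0 without the filter on low values, 3 in a fit of the control groups alone (PRDM1, TP63, KLF4) and 2 without the replicate 2 pair (PRDM1, TP63), and it ranged from 0 to 2 when 1 library was left out. In the PHGDH-siRNA arm it was 0 in a fit of those groups alone and 2 without the pair (PRDM1, TP63), and it ranged from 1 to 2 when 1 library was left out. A replicate block in the PHGDH-siRNA arm was chosen after the data were seen. With it the count was 4 there (TP63, KLF5, GRHL1 and PRDM1) and 2 in the control arm. The count was also 4 in a blocked fit of the PHGDH-siRNA groups alone, which called 3948 of all genes tested. With this block and voom on recovered reads the counts were 4 and 3 (KLF5 in addition), where 3541 and 3606 of all genes were called. The main fit called 1291 and 1391 of all genes, so the larger counts of factors came with larger counts over all genes. The siRNA comparisons and the interaction called 0 factors under every alternative run. With a replicate block over all 4 groups, where most numbers do not pair, the PRDM1 calls stood (adjusted p = 0.0112 in the PHGDH-siRNA arm and 0.038 in the control arm), and the count of factors called stayed at 1, 1, 0, 0 and 0; over all genes the block left 1188 and 1293 calls for Mix and 0 between siRNAs.

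Signs changed only in differences that were not called. Without the replicate 2 pair, the siRNA difference became -0.24 without Mix and -0.12 with Mix for TP63, -0.42 and -0.18 for KLF5, and -0.036 without Mix for ZNF750, and the interaction became 0.12 for TP63. On recovered reads with voom the PRDM1 interaction was -0.25, and -0.24 with the block in the PHGDH-siRNA arm. With 1 library left out, the siRNA difference without Mix ranged from -0.24 to 0.45 for TP63, -0.42 to 0.42 for KLF5 and -0.036 to 0.46 for ZNF750, and that with Mix from -0.12 to 0.26 for TP63, -0.14 to 0.63 for KLF4, -0.18 to 0.43 for KLF5 and -0.51 to 0.012 for GRHL1. The Mix difference ranged from -0.53 to 0.31 for KLF4, -0.36 to 0.25 for OVOL1 and -0.13 to 0.55 for ZNF750 in the PHGDH-siRNA arm and from -0.015 to 0.17 for GRHL3 in the control arm. The interaction ranged from -0.32 to 0.37 for TP63, -0.83 to 0.0081 for KLF4, -0.27 to 0.62 for KLF5, -0.13 to 0.39 for GRHL1, -0.043 to 0.25 for GRHL3, -0.25 to 0.35 for OVOL1 and -0.22 to 0.45 for ZNF750. The cause of these sign changes was not tested. Over all genes, voom called 1328 with Mix in the PHGDH-siRNA arm and 1410 in the control arm, close to 1291 and 1391, whereas a fit of the compared groups alone called 238 and 2642, no filter 761 and 939, and the block in the PHGDH-siRNA arm 3284 and 3298. Scaling moved the median of all genes by less than 0.1 in every comparison. ZNF750 and, without Mix, PRDM1 rest on few reads, which limits their precision.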
